A study of Homo sapiens with 6 samples.

Results

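The G1/S and DNA replication genes are 37 genes that carry a cell from G1 into S phase and copy its DNA, taken from a named list and matched by gene symbol. All 37 were listed in each of the 6 libraries, and all 37 passed the expression filter that left 13400 of 20979 symbols for testing. The libraries came from A172, a human glioblastoma line, and held polyadenylated RNA. Lipofectamine was used to transfect a duplex for miR-324-5p (the 5p duplex), a duplex for miR-324-3p.1 (the 3p.1 duplex), or a control miRNA. RNA was taken 1 day later, and each group held 2 libraries. The duplexes stand for products of the opposite arms of the MIR324 hairpin, whose choice of arm the study is about. A172 is a single tumour line, and the labels name no genotype or other agent that would set the groups apart. They do not say whether replicates were grown as separate cultures. The p-values therefore reflect just the scatter among these libraries, which may be technical.

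Passage through G1/S rests on cyclin D and cyclin E kinases, which release E2F transcription factors from the retinoblastoma protein. E2F factors drive transcription of many replication genes, so their mRNAs climb together toward S phase in cycling cells. Replication origins are licensed when ORC, CDC6 and CDT1 load the MCM2 to MCM7 ring. CDC45 and GINS turn that ring into an active helicase, and polymerases, clamp and clamp loader then copy the strands. In bulk RNA, fewer cells in a phase and less RNA per cell cannot be told apart.

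The sequences of both hairpin arms are shown because a microRNA pairs with its targets mainly through its seed, bases 2 to 8, which are in capitals. The sequences are from RefSeq, and the hairpin lies on the minus strand of GRCh38.p14 at chr17:7223297-7223379. The labels do not give the strands in the duplexes. The 3p arm was therefore also read from 1 and 3 bases further downstream, as a description of shifted seeds.
hsa-miR-324-5p: cGCAUCCCcuagggcauuggug
hsa-miR-324-3p: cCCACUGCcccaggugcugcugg
3p arm started 1 base later: cCACUGCCccaggugcugcugg
3p arm started 3 bases later: aCUGCCCCaggugcugcugg

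Seed matches in the 3′ untranslated regions were no more common among the 37 genes than among all genes with an annotated region (GENCODE 29, GRCh38). A match was counted where the region held the complement of the whole seed, or the complement of the seed without its last base followed by an A. For the 5p arm these strings are GGGATGC and GGATGCA, and 3 of 37 members held either one (8.108%), against 14.637% of 11744 genes. For the listed 3p arm they are GCAGTGG and CAGTGGA, and 9 of 37 held either one (24.324%), against 32.127%. With the 3p arm started 1 base later, GGCAGTG or GCAGTGA was present in 24.324% of the 37, against 30.884%. With the start 3 bases later, GGGGCAG or GGGCAGA was present in 18.919%, against 28.031%. The 3′ untranslated regions of the 37 genes were also shorter, with a median of 980 bases against 1383 bases over all genes, and the part of length in these shares was not tested.

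The 3 genes with a 5p match were CDC6 and MCM2, which license origins, and POLA1, the catalytic subunit of the primase polymerase. All 3 held the complement of the whole seed, GGGATGC. The matches are shown with 8 bases on each side and in capitals, and each position is that of the match, on the plus strand of GRCh38. All 3 lie in annotated 3′ untranslated sequence.
CDC6, chr17:40303217-40303223: tttgaaagGGGATGCttgaggct
MCM2, chr3:127621969-127621975: ctttgggtGGGATGCcttgccag
POLA1, chrX:24996735-24996741: cggggagaGGGATGCttaattgg

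Whether a 5p match goes with the response of a member was not tested, and only 3 genes held one. After the 5p duplex, the median log2 fold change of these 3 against control was −0.05, and that of the other members was −0.11. Over all genes the order was the opposite, with medians of −0.08 for genes with a match and −0.02 for genes without one. CDT1, which had the most negative fold change of the 37 after the 5p duplex, held no 5p match. A match is a string of letters, and binding was not measured.

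Many of the 37 promoters carried an E2F word. Of 32 with a RefSeq promoter entry (250 bases before to 50 after the start), 20 held TTTCCCGC, TTTGGCGC, TTTGCCGC or TTTCGCGC on either strand, which is 62.5%. The share was 5.464% of the 9882 tested genes with an entry and 3.315% of all 35116 promoters. At least 2 hits, overlapping ones included, were found in 15.625% of the members, against 0.263% of the tested genes. CCND1, CCNE2, E2F8, MCM4 and MCM5 had no entry that matched. Windows of 30 bases around the word, in capitals, are shown for 5 genes whose values are given in full further on, each read along its gene's strand (GRCh38.p14).
CDT1, chr16:88803743-88803772, plus: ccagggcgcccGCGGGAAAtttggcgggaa
E2F1, chr20:33686387-33686416, minus: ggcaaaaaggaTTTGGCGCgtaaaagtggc
CDC6, chr17:40287875-40287904, plus: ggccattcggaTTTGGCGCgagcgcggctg
MCM2, chr3:127598402-127598431, plus: cgtgaaccactTTTCGCGCgaaacctggtt
UHRF1, chr19:4909476-4909505, plus: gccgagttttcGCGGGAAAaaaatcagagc

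In CDT1 and UHRF1 the word reads on the opposite strand, and in MCM2 a second word on the opposite strand overlaps the one shown. Whether the word goes with a member's response was not tested. Between the duplexes, the median log2 fold change was −0.25 over the 20 members with a word and −0.19 over the 12 without. After the 5p duplex against control the medians were −0.11 and −0.06, and after the 3p.1 duplex they were 0.09 in both.

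The 37 genes were well expressed in all groups. Their median level was 62.1 and 60.9 TPM (a length-scaled transcript level, set to one total in each library) after the 5p duplex. The same median was 69.9 and 73.6 TPM in the 3p.1 duplex libraries and 63.0 and 70.2 TPM in the control libraries. For each library, the median over the members of the log2 level minus the control mean was also taken. It stood at −0.13 and −0.05 for the 5p duplex, 0.05 and 0.07 for the 3p.1 duplex, and −0.07 and 0.07 for the control. The duplexes thus lay apart from each other, while one 5p duplex library and both 3p.1 duplex libraries lay within the range that the control libraries spanned.

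**Figure D1:**
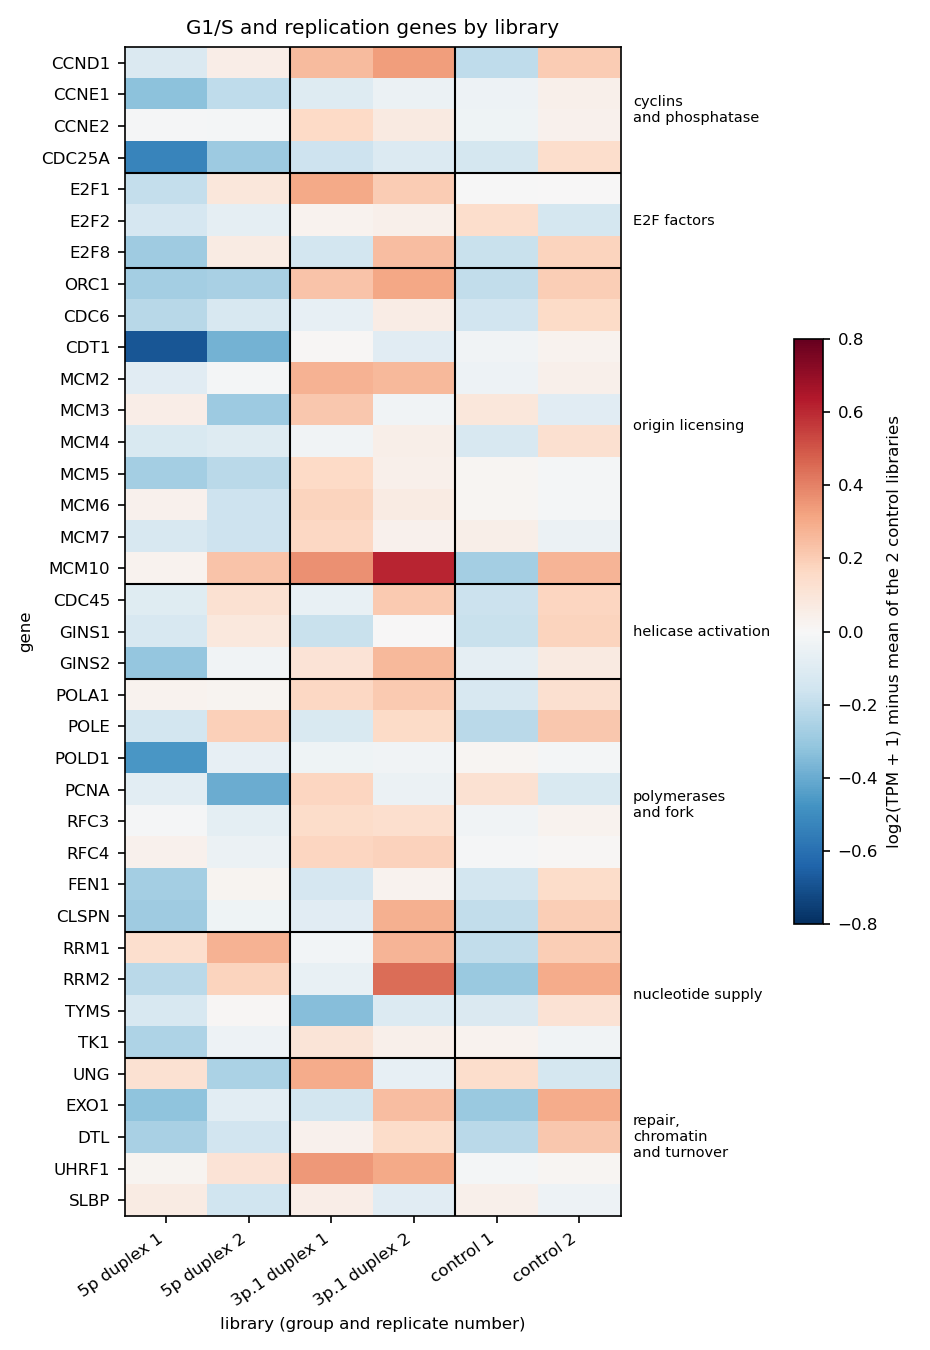
Log2 level of each of the 37 genes in each of the 6 libraries relative to the mean of the control libraries, with genes in rows by role and libraries in columns. Most rows are lower in the 5p duplex columns than in the 3p.1 duplex columns, and replicate 2 often differs from replicate 1 in the same direction in all 3 groups.

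No member passed the test in any of the 3 comparisons, which share libraries with one another. Differences were tested with limma on log2(TPM + 1), a scale that understates the change of low genes, with Benjamini-Hochberg adjustment over all 13400 genes and a threshold of 0.05. The lowest adjusted p of a member was 0.22 for the 5p duplex against control, 0.472 for the 3p.1 duplex against control and 0.288 for the 5p duplex against the 3p.1 duplex. With the replicate number as a block these became 0.08, 0.155 and 0.0642, and again no member was called.

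After the 5p duplex, the lowest p against control belonged to the licensing factor CDT1, the phosphatase CDC25A, cyclin E1 and MCM5, all lower. By limma 0 of 37 members were called, beside 0.463% of all genes, and with the replicate block 0 members, beside 2.74% of all genes. At an unadjusted p under 0.05, 4 members were lower (10.8%), against 7.3% of all genes, and none was higher, against 1.86%. With the block, 6 members were lower at that threshold (16.2%) against 13% of all genes, and 1 was higher (2.7%) against 5.42%. Both 5p duplex libraries lay below both control libraries for 8 members (21.6%), against 22.1% of all genes, and above them for UHRF1 alone (2.7%), against 12.7%. The unadjusted count of 4 lower members was 1 without control replicate 2 or without 5p duplex replicate 1, 2 without either 3p.1 duplex library, 2 under quantile normalization or a common median, and 6 without control replicate 1. The unadjusted shares of lower members exceeded the background by a few percentage points, and the other shares were at or under it.

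The direction of the members leaned to lower values in the 5p duplex, but this lean moved with single libraries. Its distance from 0 also moved with scaling, as did the median over all genes. Of 37 members, 31 had a negative log2 fold change (83.8%), against 57.2% of all genes, with a median of −0.10 against −0.03 over all genes. The extremes were −0.53 for CDT1 and 0.20 for RRM1. Without control replicate 2, 19 members were negative and the median was −0.016, against −0.016 over all genes. Without 5p duplex replicate 1, 24 were negative and the median was −0.05, and without control replicate 1, 33 were negative and the median was −0.18. Over all genes the medians without these last libraries were −0.02 and −0.05. With each library shifted to a common median 22 were negative and 15 positive, and the median was −0.05, against 0.03 over all genes. With quantile normalization 28 were negative and the median was −0.05, against 0.03 over all genes. The members' median thus stayed below that of all genes under both scalings.

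After the 3p.1 duplex, the members leaned the other way, and UHRF1, MCM2 and MCM10 had the lowest p. By limma 0 of 37 members were called, beside 0.0149% of all genes, and with the replicate block 0 members, beside 0.224%. At an unadjusted p under 0.05, 3 members were higher (8.11%), against 1.24% of all genes, and none was lower, against 5.62%. With the block, 7 members were higher (18.9%) against 3.69%, and 1 was lower (2.7%) against 11.8%. Both 3p.1 duplex libraries lay above both control libraries for 14 members (37.8%), against 12.1% of all genes. These were CCND1, CCNE2, E2F1, ORC1, MCM2, MCM5, MCM6, MCM10, GINS2, POLA1, RFC3, RFC4, TK1 and UHRF1. They lay below them for CCNE1 and POLD1 (5.41%), against 24.1% of all genes.

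A negative log2 fold change after the 3p.1 duplex was found for 9 members (24.3%), against 59% of all genes, so that 28 were positive. The median was 0.09, against −0.03 over all genes, and the values ran between −0.23 for TYMS and 0.49 for MCM10. Without control replicate 1, 20 members were positive and the median was 0.06. Without control replicate 2 the median was 0.15, and without 3p.1 duplex replicate 2 it was 0.05 with 22 members positive. With a common median per library 33 were positive and the median was 0.15, while the median over all genes also rose, to 0.02. The unadjusted count of 3 higher members was 1 without control replicate 1 or without either 3p.1 duplex library, 7 without control replicate 2, and 8 with a common median.

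The widest separation was between the duplexes. By limma 0 of 37 members were called for the 5p duplex against the 3p.1 duplex, beside 0.433% of all genes, and with the replicate block 0 members, beside 2.07%. Both 5p duplex libraries lay below both 3p.1 duplex libraries for 24 members (64.9%), against 19.4% of all genes, and above them for none, against 21%. At an unadjusted p under 0.05, 8 members were lower in the 5p duplex (21.6%), against 4.96% of all genes, and none was higher, against 4.39%. With the block, 23 were lower (62.2%), against 9.39%, and 1 was higher (2.7%), against 9.28%. The unadjusted count of 8 lower members was 2 without 3p.1 duplex replicate 1 and 4 without 3p.1 duplex replicate 2.

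The direction held in each replicate number taken alone. Between the duplexes, 33 of 37 members had a negative log2 fold change (89.2%), against 48.7% of all genes, and the median was −0.21 against 0.01 over all genes. Within replicate number 1, 33 of 37 members were lower in the 5p duplex, with a median of −0.17, against 47.8% of all genes. Within number 2 also 33 of 37 were lower, with a median of −0.19, against 49.5% of all genes. In both at once 32 of 37 members were lower, a larger share than the 32.2% of all genes. Only 3 of 37 were higher in both, a smaller share than the 34.5% of all genes. In order of group means, 22 of 37 members stood lowest in the 5p duplex, highest in the 3p.1 duplex and between them in control, an order that 16.1% of all genes shared.

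**Figure D2:**
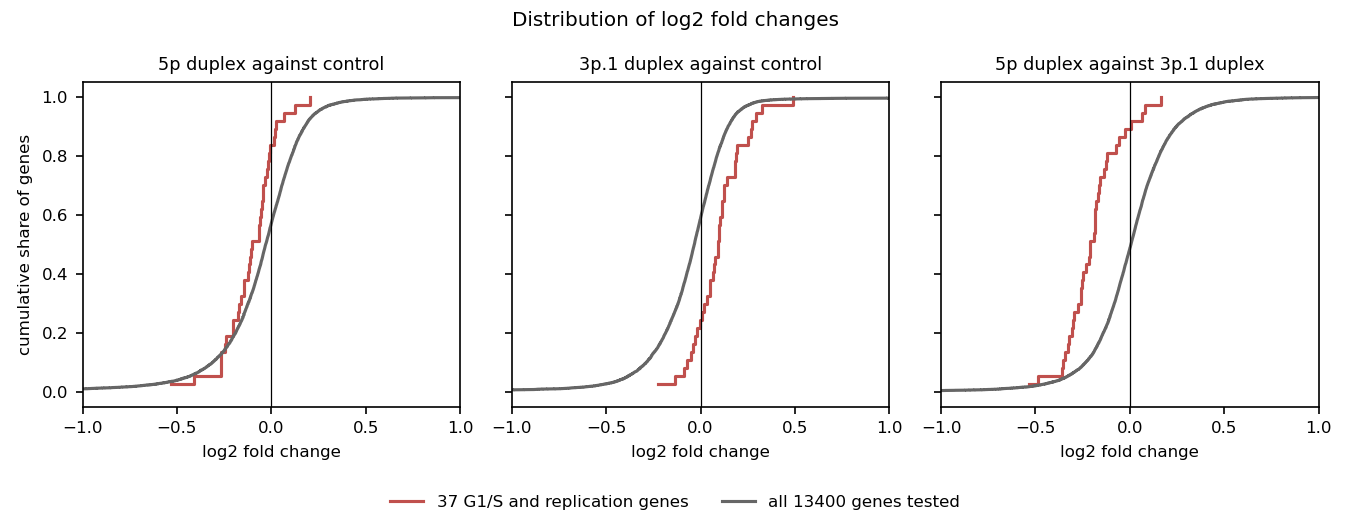
Cumulative share of genes against log2 fold change for the 37 members (red) and all 13400 genes tested (grey), in a panel per comparison. The member curve lies left of the grey one between the duplexes, with medians of −0.21 and 0.01, and right of it for the 3p.1 duplex against control, with medians of 0.09 and −0.03.

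Single differences were all under 2-fold, and none passed the adjusted threshold. The 95% interval from the fit without the replicate block lay within a 2-fold change for all 37 members in each comparison. A larger change of any member thus falls outside its interval. Within 1.5-fold it lay for 26 members for the 5p duplex against control, 32 for the 3p.1 duplex against control and 22 between the duplexes. The median width to either side was 0.34 on the log2 scale. The smallest absolute log2 fold change called among all genes was 0.68 for the 5p duplex against control, 3.01 for the 3p.1 duplex against control and 0.59 between the duplexes, while the largest among members was 0.53, 0.49 and 0.54 in the same comparisons.

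**Figure D3:**
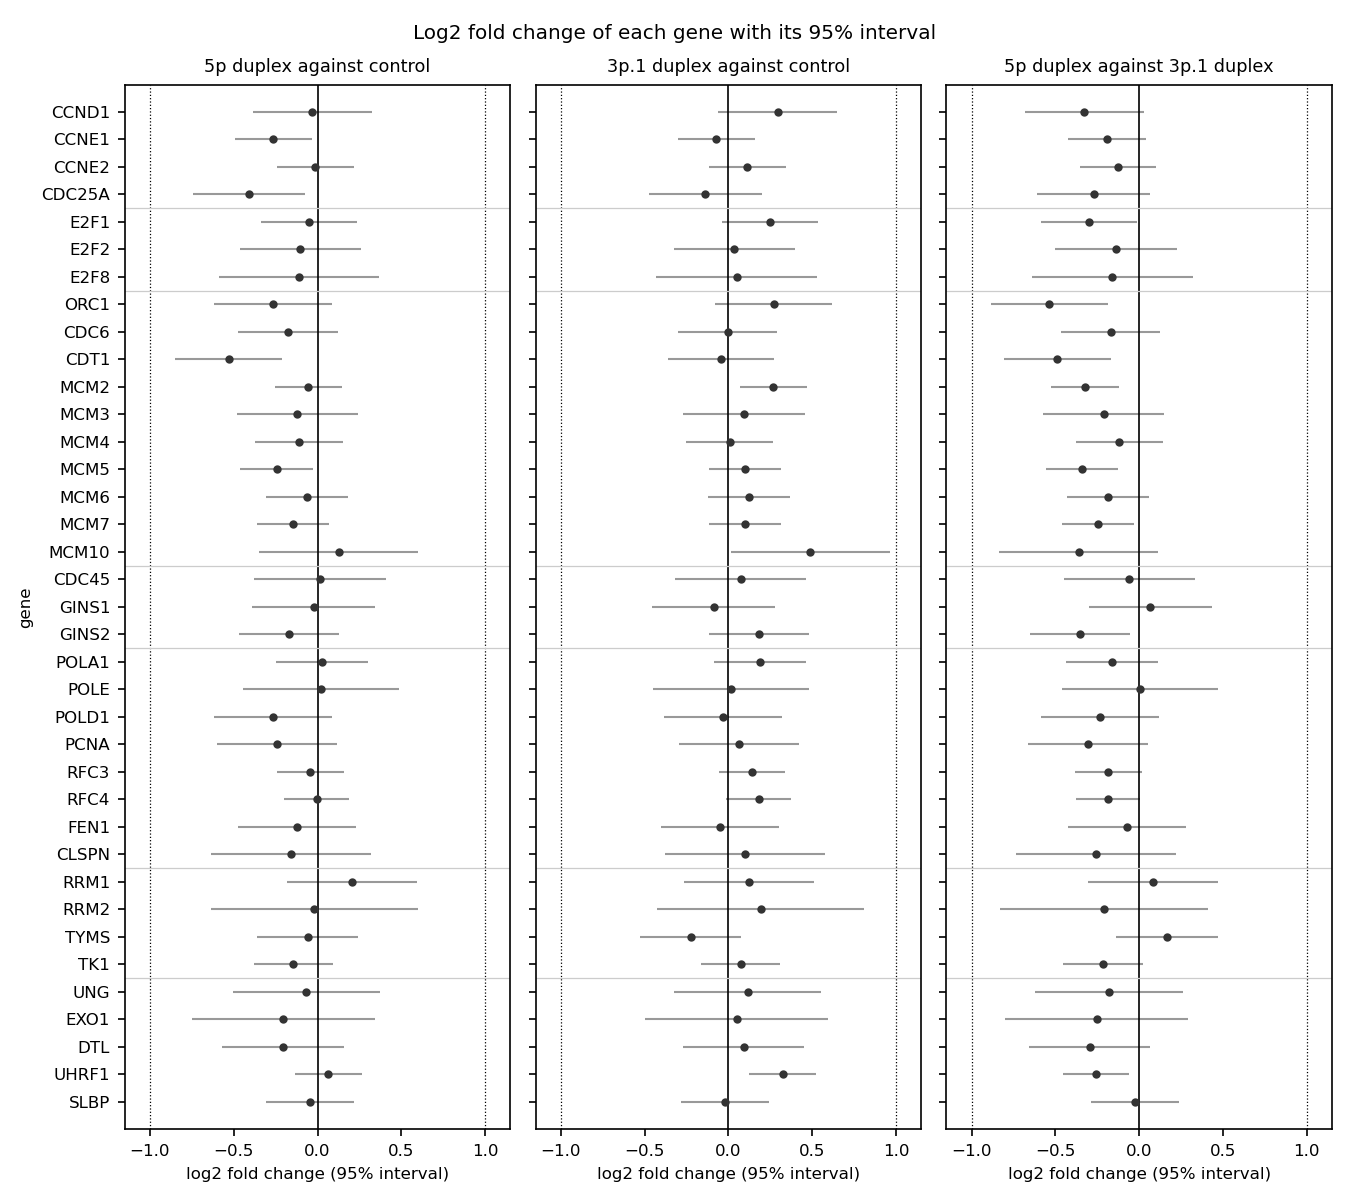
Log2 fold change of each member with its 95% interval from limma without the replicate block, in a panel per comparison, with genes ordered by role. Every interval lies within 1 log2 unit of 0, and 4, 3 and 8 intervals exclude 0 in the comparisons of the 5p duplex with control, the 3p.1 duplex with control, and the duplexes with each other.

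Among the cyclins and their phosphatase, CCNE1 and CDC25A stood lower in the 5p duplex libraries. CCNE1, the cyclin E that activates CDK2 at the G1/S boundary (chr19:29811898-29824308), had 29.98 and 32.8 TPM in the 5p duplex, 35.2 and 36.7 TPM in the 3p.1 duplex, and 36.8 and 38.9 TPM in control. The groups did not overlap, with a log2 fold change of −0.26 ± 0.10 (SE) for the 5p duplex against control and a limma adjusted p of 0.458. CDC25A, which removes inhibitory phosphates from CDK2, had 14.5 and 17.3 TPM in the 5p duplex, 18.97 and 19.8 TPM in the 3p.1 duplex, and 19.3 and 23.7 TPM in control. Both 5p duplex libraries were below all others, at a log2 fold change of −0.41 ± 0.14 (SE) against control and a limma adjusted p of 0.419. The limma adjusted p was 0.0852 with the replicate block.

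The other cyclins differed less. CCND1, cyclin D1, the partner of CDK4 and CDK6, had 359 and 403 TPM in the 5p duplex, 464 and 491 TPM in the 3p.1 duplex, and 337 and 449 TPM in control. The 3p.1 duplex libraries were above all others, and the 5p duplex libraries lay between the control libraries. Its log2 fold change was 0.29 ± 0.15 (SE) for the 3p.1 duplex against control, with a limma adjusted p of 0.784, and it was 0.09 without control replicate 1 and 0.50 without control replicate 2. CCNE2, the second cyclin E, had 23.4 and 23.2 TPM in the 5p duplex, 26.3 and 24.7 TPM in the 3p.1 duplex, and 22.9 and 24.1 TPM in control, so that the 3p.1 duplex was above the others by a narrow margin.

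E2F1, an activating E2F factor, had 30.6 and 37.5 TPM in the 5p duplex, 43.5 and 40.5 TPM in the 3p.1 duplex, and 35.1 and 35.2 TPM in control. Both 3p.1 duplex libraries were above all others, and the control libraries lay within the range of the 5p duplex. The log2 fold changes were 0.25 ± 0.12 (SE) for the 3p.1 duplex against control and −0.30 ± 0.12 (SE) between the duplexes, with limma adjusted p of 0.77 and 0.511. E2F8, an atypical E2F that represses E2F targets, had 16.2 and 20.9 TPM in the 5p duplex, 17.9 and 23.8 TPM in the 3p.1 duplex, and 17.5 and 22.7 TPM in control. Its groups overlapped, with replicate 2 above replicate 1 in each. Taken by replicate number, E2F8 was lowest in the 5p duplex and highest in the 3p.1 duplex both times. E2F2, another activator, was the lowest member, at 2.84 to 3.68 TPM over the 6 libraries.

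All 10 genes grouped under origin licensing had negative log2 fold changes between the duplexes, with a median of −0.29. The group includes MCM10, which acts at origin firing and was the 1 positive gene for the 5p duplex against control. For the 5p duplex against control 9 of 10 were negative (median −0.13), and for the 3p.1 duplex against control 8 of 10 were positive (median 0.10).

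CDT1 loads the MCM ring onto origins and lies at chr16:88803213-88809258. It had 11.8 and 14.8 TPM in the 5p duplex, 19.7 and 18.3 TPM in the 3p.1 duplex, and 19.2 and 19.9 TPM in control, or means of 13.3 ± 2.15, 18.97 ± 0.98 and 19.6 ± 0.52 TPM (SD, n = 2 each). Both 5p duplex libraries were below all others, and the other groups overlapped. Its log2 fold change was −0.53 ± 0.13 (SE) against control (limma adjusted p = 0.22) and −0.49 ± 0.13 (SE) against the 3p.1 duplex (limma adjusted p = 0.304). With the replicate block the limma adjusted p against control was 0.08.

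ORC1, the largest subunit of the origin recognition complex (chr1:52372829-52404459), had 16.5 and 16.7 TPM in the 5p duplex, 23.8 and 25.3 TPM in the 3p.1 duplex, and 17.5 and 23.3 TPM in control. The 3 groups did not overlap, and the control libraries were further apart than those of either duplex. Between the duplexes its log2 fold change was −0.54 ± 0.15 (SE), the most negative of the 37, with a limma adjusted p of 0.305. The limma adjusted p was 0.0769 with the replicate block. CDC6, the loader that works with CDT1, had 67.4 and 71.9 TPM in the 5p duplex, 75.1 and 82.0 TPM in the 3p.1 duplex, and 70.8 and 87.5 TPM in control. The duplexes did not overlap, and both overlapped the control libraries, although CDC6 was lower in the 5p duplex than in control within each replicate number.

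MCM2, a subunit of the helicase ring (chr3:127598223-127622436), had 76.9 and 80.95 TPM in the 5p duplex, 99.5 and 98.5 TPM in the 3p.1 duplex, and 79.8 and 84.2 TPM in control. The 3p.1 duplex stood above all other libraries, at 99.0 ± 0.71 TPM (SD, n = 2), against 82.0 ± 3.1 TPM in control (SD, n = 2). The log2 fold changes were 0.27 ± 0.08 (SE) for the 3p.1 duplex against control and −0.32 ± 0.08 (SE) between the duplexes, with limma adjusted p of 0.589 and 0.288. With the replicate block the limma adjusted p were 0.183 and 0.078. MCM5, another ring subunit (chr22:35400063-35425430), had 42.9 and 44.7 TPM in the 5p duplex, 58.2 and 53.5 TPM in the 3p.1 duplex, and 52.7 and 51.4 TPM in control. Its 3 groups did not overlap, and the log2 fold change was −0.24 ± 0.09 (SE) for the 5p duplex against control (limma adjusted p = 0.473) and −0.34 ± 0.09 (SE) between the duplexes (limma adjusted p = 0.294).

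MCM10, which joins the helicase at origin firing, had 24.4 and 28.2 TPM in the 5p duplex, 31.1 and 37.1 TPM in the 3p.1 duplex, and 19.7 and 29.1 TPM in control. The 3p.1 duplex libraries were above all others, and the control libraries differed most. The log2 fold change of the 3p.1 duplex against control was 0.49 ± 0.20 (SE), with a limma adjusted p of 0.71, and was 0.22 without control replicate 1 and 0.76 without control replicate 2. Of the remaining ring subunits, MCM4, MCM6 and MCM7 lay lower in both 5p duplex libraries than in both 3p.1 duplex libraries. For MCM3 these groups overlapped, although it was lower in the 5p duplex within each replicate number. Over these 4 subunits log2 fold changes between the duplexes were between −0.25 and −0.12.

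**Figure D4:**
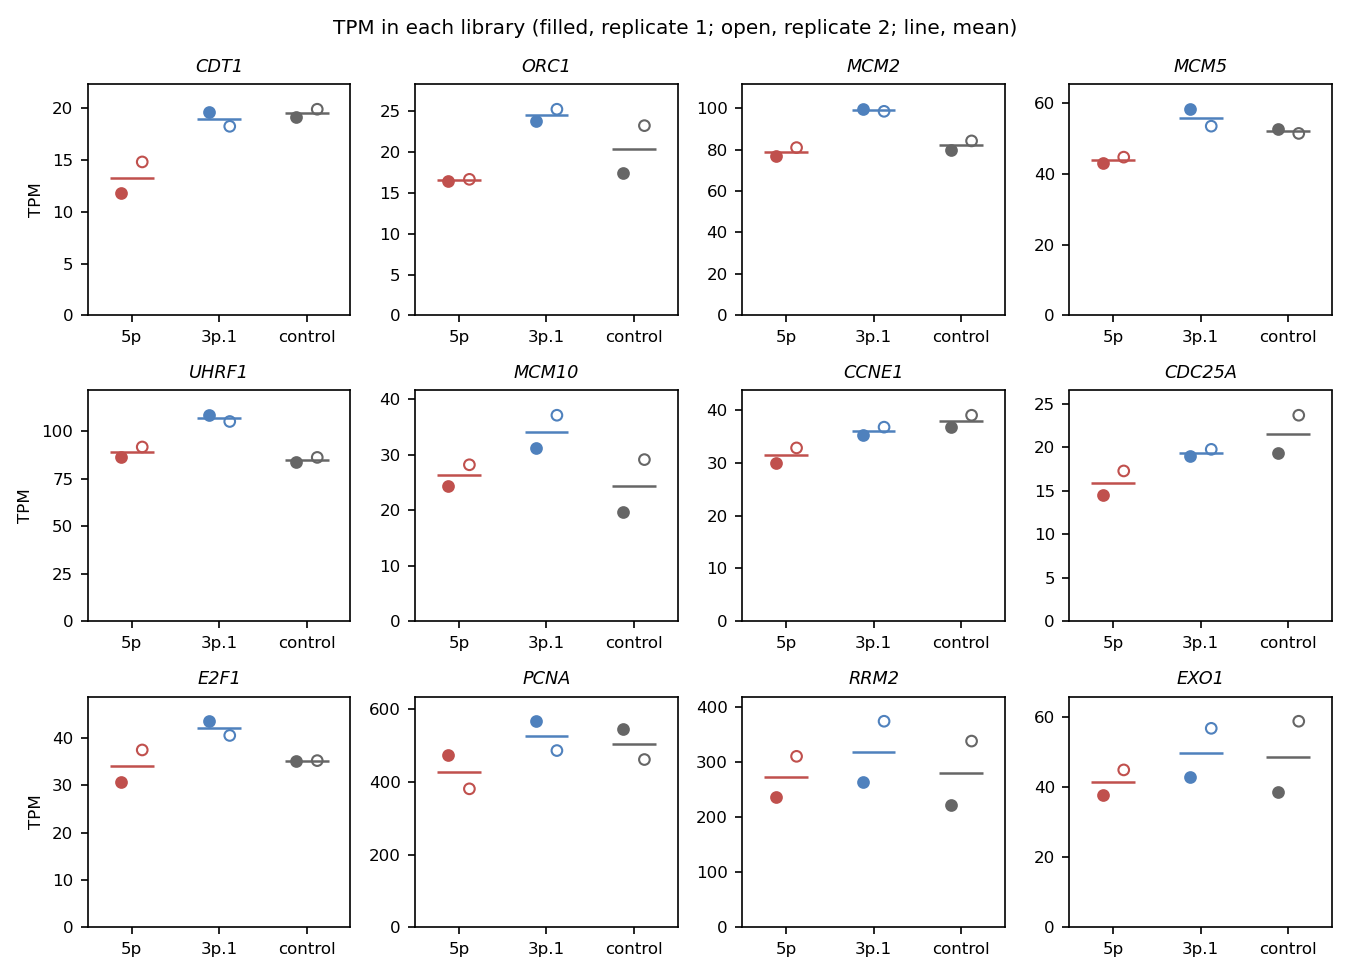
TPM of named members in the 6 libraries, with a panel per gene, filled points for replicate 1, open points for replicate 2, lines for the group mean, and groups in the order 5p duplex, 3p.1 duplex and control. CDT1 is below 15 TPM in the 5p duplex only, and MCM2 is above 98 TPM in the 3p.1 duplex only.

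The helicase activators, GINS1, GINS2 and CDC45, showed no common direction. Between the duplexes GINS2 had the most negative log2 fold change of the 3, at −0.35. Its limma adjusted p was 0.449, or 0.0652 with the replicate block. CDC45 was at −0.06 and GINS1 at 0.07. Against control, the 3 lay between −0.17 and 0.01 for the 5p duplex and between −0.09 and 0.18 for the 3p.1 duplex.

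Among polymerase and fork genes 7 of 8 had a negative log2 fold change between the duplexes, with a median of −0.19. PCNA, the sliding clamp, had 473 and 381 TPM in the 5p duplex, 567 and 486 TPM in the 3p.1 duplex, and 546 and 462 TPM in control. Replicate 1 was higher in each group, and the 5p duplex libraries overlapped those of control but not those of the 3p.1 duplex. Within each replicate number PCNA was lower in the 5p duplex than in control. Its log2 fold change between the duplexes was −0.31 ± 0.15 (SE), with a limma adjusted p of 0.622. The limma adjusted p with the replicate block was 0.0642 between the duplexes and 0.107 for the 5p duplex against control. RFC4, a clamp loader subunit, had 112 and 106 TPM in the 5p duplex, 123 and 124 TPM in the 3p.1 duplex, and 108.5 and 109.6 TPM in control. The 3p.1 duplex was above the others, with a log2 fold change of 0.18 ± 0.08 (SE) against control and a limma adjusted p of 0.738.

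POLD1, the catalytic subunit of polymerase delta, had 13.8 and 18.6 TPM in the 5p duplex, 19.03 and 19.1 TPM in the 3p.1 duplex, and 19.8 and 19.2 TPM in control. One 5p duplex library stood well below the other, and the log2 fold change against control was −0.27 ± 0.15 (SE), with a limma adjusted p of 0.672. It was −0.07 without 5p duplex replicate 1 and −0.47 without 5p duplex replicate 2. POLA1, one of the genes with a 5p match, had 29.6 and 29.5 TPM in the 5p duplex, 32.7 and 33.6 TPM in the 3p.1 duplex, and 26.4 and 31.8 TPM in control. The 5p duplex libraries lay between the control libraries. For POLE, the leading-strand polymerase, the log2 fold changes were all within 0.02 of 0, and for FEN1, the flap nuclease, they lay between −0.12 and −0.05. RFC3, a second clamp loader subunit, stood above the other groups in the 3p.1 duplex, while CLSPN, the checkpoint adaptor claspin, overlapped in all 3. Within each replicate number CLSPN was lowest in the 5p duplex and highest in the 3p.1 duplex.

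The nucleotide supply genes did not share a direction. RRM2, the regulated subunit of ribonucleotide reductase, had 237 and 311 TPM in the 5p duplex, 263 and 374 TPM in the 3p.1 duplex, and 223 and 338 TPM in control. Replicate 2 was well above replicate 1 in each group, and all groups overlapped. The log2 fold changes were −0.02, 0.19 and −0.21 in the 3 comparisons, with standard errors of 0.26 in the fit without the replicate block. Within each replicate number RRM2 was higher in the 3p.1 duplex than in the 5p duplex and in control. With the replicate block the limma adjusted p was 0.201 between the duplexes and 0.289 for the 3p.1 duplex against control. RRM1, the large subunit, had the highest log2 fold change for the 5p duplex against control, at 0.20 ± 0.16 (SE), which was 0.01 without control replicate 1 and 0.40 without control replicate 2. TYMS, thymidylate synthase, had the most negative one for the 3p.1 duplex against control, at −0.23 ± 0.13 (SE), with limma adjusted p of 0.799 for RRM1 and 0.828 for TYMS. TK1, thymidine kinase, lay below the control libraries in the 5p duplex and above them in the 3p.1 duplex, with log2 fold changes of −0.14 and 0.07.

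UHRF1, which carries maintenance DNA methylation to new strands (chr19:4903080-4962154), had 86.5 and 91.7 TPM in the 5p duplex, 108 and 105 TPM in the 3p.1 duplex, and 84.0 and 86.2 TPM in control. The 3 groups did not overlap, and both duplexes were above control. The log2 fold change of the 3p.1 duplex against control was 0.32 ± 0.08 (SE), with a 95% interval of 0.12 to 0.52 and a limma adjusted p of 0.472. EXO1, a repair exonuclease, had 37.8 and 44.9 TPM in the 5p duplex, 42.8 and 56.7 TPM in the 3p.1 duplex, and 38.5 and 58.7 TPM in control. All its groups overlapped, and within each replicate number it was lowest in the 5p duplex. DTL, the adaptor that sends CDT1 for degradation, was lower in both 5p duplex libraries than in both 3p.1 duplex libraries, at a log2 fold change of −0.30 ± 0.15 (SE). For UNG, the uracil glycosylase, and SLBP, the histone mRNA stem-loop binding protein, the groups overlapped in all comparisons. Within each replicate number UNG, but not SLBP, was lowest in the 5p duplex and highest in the 3p.1 duplex.

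The replicate number moved with the members in every group. Replicate 2 was higher than replicate 1 for 27 of 37 members in the 5p duplex, 23 in the 3p.1 duplex and 27 in control, with median log2 differences of 0.12, 0.06 and 0.15. Among all genes the shares higher in replicate 2 were 51%, 53.2% and 55.9% in the same groups. In all 3 groups at once 19 members were higher in replicate 2 and 6 were lower, which is 67.6% moving one way, against 51.4% of all genes. The largest mean differences were 0.50 for RRM2, 0.41 for EXO1 and 0.36 for E2F8. The 6 that were lower were MCM3, MCM6, MCM7, PCNA, UNG and SLBP.

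**Figure D5:**
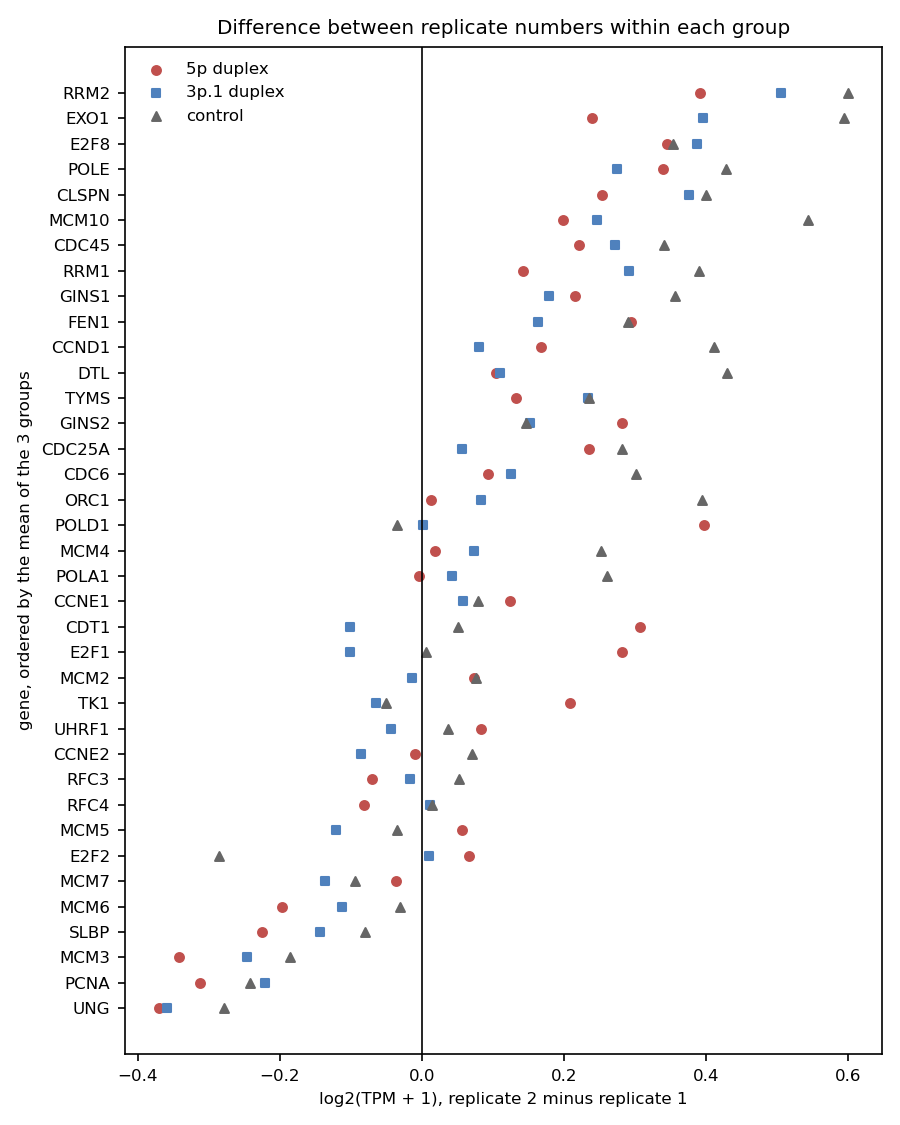
Log2 difference of replicate 2 minus replicate 1 for each member, with a symbol for each of the 5p duplex, the 3p.1 duplex and control. RRM2, EXO1 and E2F8 lie above 0 in all 3 groups, and UNG, PCNA and MCM3 lie below 0 in all 3.

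The medians of other G1/S and replication genes had the same signs as those of the members and were smaller. Of 81 in the list 80 were tested, with 0 called by limma in any comparison. At an unadjusted p under 0.05, 6 were lower and 0 higher for the 5p duplex against control, beside 7.3% and 1.86% of all genes. For the 3p.1 duplex against control these counts were 4 and 0, beside 5.62% and 1.24%. Between the duplexes they were 5 and 1, beside 4.96% and 4.39%. The medians in the same order were −0.04, 0.05 and −0.12, with 55, 31 and 66 of the 80 negative. The negative shares over all genes were 57.2%, 59% and 48.7%. With the replicate block 2 of the 80 were called for the 5p duplex against control, both lower, beside 2.74% of all genes called. CCND3, cyclin D3, had 40.5 and 41.3 TPM in the 5p duplex, 44.3 and 44.4 TPM in the 3p.1 duplex, and 60.0 and 71.7 TPM in control. RPA2, a subunit of the single-strand binding protein, had 37.9 and 42.2 TPM in the 5p duplex, 42.9 and 49.9 TPM in the 3p.1 duplex, and 65.6 and 89.7 TPM in control.

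Both genes were below both control libraries in each duplex. For the 5p duplex against control the log2 fold change was −0.67 ± 0.11 (SE) for CCND3 and −0.92 ± 0.17 (SE) for RPA2, with limma adjusted p of 0.0753 and 0.0975, and 0.0228 and 0.0114 with the replicate block. NASP, a histone chaperone, had a log2 fold change of −0.39 between the duplexes (limma adjusted p = 0.219), and TOP1, a topoisomerase, one of −0.30 for the 5p duplex against control (limma adjusted p = 0.28). ORC3, another origin recognition subunit, ran the other way between the duplexes, at 0.35 (limma adjusted p = 0.372).

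CDKN1A, the p21 inhibitor of cyclin E and CDK2, had 398 and 347 TPM in the 5p duplex, 261 and 178 TPM in the 3p.1 duplex, and 303 and 189 TPM in control. The 5p duplex libraries were above all others, with a log2 fold change of 0.63 ± 0.26 (SE) against control and 0.78 ± 0.26 (SE) against the 3p.1 duplex, and limma adjusted p of 0.546 and 0.416. With the replicate block the limma adjusted p was 0.0509 against control and 0.034 against the 3p.1 duplex. The p53 target list of 24 genes had medians of 0.30 for the 5p duplex against control, −0.07 for the 3p.1 duplex against control and 0.36 between the duplexes, with 0 called. With the replicate block 2 of these were called higher, 1 lower and 6 higher in the same comparisons. The block called 2.74%, 0.224% and 2.07% of all genes in either direction. The G2/M list of 35 genes had medians of 0.08, 0.15 and −0.08 in the same comparisons, with 0 called. Of the 35, 8, 0 and 32 were negative, against 57.2%, 59% and 48.7% of all genes. Of 10 CDK inhibitor and RB family genes 8 were tested, with 0 called. With the block 1 was called lower for the 5p duplex against control, and 1 lower and 1 higher between the duplexes. The higher one was CDKN1A, which is also in the p53 target list, so the lists are not independent. TOP2A is in both the other replication list and the G2/M list, and RRM2B in both the other replication list and the p53 target list. The part of these lists in the members' differences was not tested.

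Across the series, 18660 to 19070 symbols were listed per library, and log2 levels correlated between libraries at 0.976 to 0.99 across genes. Depth is unknown because TPM keep none. By limma 62 genes were called for the 5p duplex against control (57 lower, 5 higher), 2 for the 3p.1 duplex against control and 58 between the duplexes (47 lower, 11 higher). All 36 interferon genes listed had negative log2 fold changes in both duplexes against control, beside 57.2% and 59% of all genes. By limma 4 of the 36 were called lower for the 5p duplex and 0 for the 3p.1 duplex, beside 0.463% and 0.0149% of all genes called in either direction. With the replicate block 21 and 6 were called lower, beside 2.74% and 0.224%. The median level of the interferon genes was 11.1 and 7.43 TPM in the 5p duplex, 8.39 and 10.1 TPM in the 3p.1 duplex, and 47.2 and 140 TPM in control, so control replicate 2 stood apart from control replicate 1. Leaving out control replicate 2 also moved the members' medians against control, as given above, and the part of the interferon genes in this was not tested. Of 12 astroglial and glioma markers 7 were at 1 TPM or more in every library, with VIM and CD44 high, while GFAP was at 0.25 TPM or less and S100B and AQP4 were listed in none. Endothelial markers were near 0 and summed to 0.69 to 0.83 TPM in the 5p duplex, 0.53 to 0.88 TPM in the 3p.1 duplex and 0.82 to 1.21 TPM in control. Of 6 epithelial markers 5 were at 1 TPM or more in every library, with KRT8 and KRT18 high and CDH1 near 0. They summed to 930.2 to 1055 TPM in the 5p duplex, 1198 to 1359 TPM in the 3p.1 duplex and 1205 to 1223 TPM in control, so the 5p duplex libraries were below all others, and the part of this in the members' lower values there was not tested. Neuronal markers summed to 13.0 to 15.3 TPM over the 6 libraries. Most of this was GAD1, at 10.2 to 13.6 TPM, and every other neuronal marker was under 1 TPM in every library. The blood marker PTPRC was at 5.52 to 7.48 TPM.

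Some members share sequence or exons with other annotated genes, so their levels are uncertain to that extent. FEN1, PCNA, RFC3, RRM2, TYMS and UNG have processed copies by name. CCND1, CCNE2, FEN1, GINS2, MCM2, MCM7, RFC4 and TYMS overlap exons of a gene on the other strand. FEN1, POLD1 and RRM2 overlap exons of another gene on the same strand. The libraries were stranded per the labels, but the strand setting of the counting is not given in the sources used here.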

How the data were processed

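Polyadenylated RNA of A172 cells was sequenced in 6 stranded libraries of 3 groups, taken with their replicate numbers from the labels. The authors deposited TPM per gene symbol for each library. RSEM and GRCh38 are named per the submitters' processing notes, with no versions; the sources used here give neither annotation nor aligner. Symbols not listed in a library were set to 0, and symbols listed more than once were summed (21 to 23 per library). Depth is unknown, so no counting interval is given.

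A gene was tested if its TPM averaged 1 or more across all 6 libraries. Log2(TPM + 1) was fitted with limma 3.58.1 in R 4.3.3 as 3 group means, with a variance trend on mean expression and 3 residual degrees of freedom. Tests were two-sided, with Benjamini-Hochberg adjustment over all genes and a threshold of 0.05. Errors of fold changes are standard errors and intervals are 95%, all from this fit without the replicate block. The procedure was tested on simulated data that held no replicate effect and only changes larger than that of any member. That test therefore does not show how well changes of the members' size are detected.

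Samples with the same replicate number deviated together, with correlations of 0.265 (5p duplex and control), 0.375 (3p.1 duplex and control) and 0.383 (5p duplex and 3p.1 duplex) over 13400 genes. Over the 37 members these were 0.619, 0.874 and 0.717. All were above 0.1, so the numbers were taken to pair the samples. The fit with replicate number as a block is given for the counts and for some single genes. The pairing comes from the values and the numbers in the titles, not from a stated batch.

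The members and lists were chosen with earlier results of these data known. Members given in full are the 5 with the lowest p in each comparison, the 3 with the largest difference between replicate numbers, and 9 set by role. POLA1, outside these rules, is also given in full as a gene with a 5p match. Of other replication genes, those called or the 3 with the lowest p in each comparison are named. In all, 15 alternatives were tried.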

Additional observations from a re-analysis of the deposited data

How the results depend on the processing

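No member was called under any of the 15 alternatives, and no median of the members changed sign. The number of genes called was less stable. For the 5p duplex against control (62) it was 9 without a filter on low TPM, 367 with the replicate block, 11 with only the 2 groups compared, 33 with no variance trend, and 7 to 128 with a library left out. For the 3p.1 duplex against control (2) it was 0, 30 and 18 under the first 3 of these, and 5 to 94 with a library left out. For the 5p duplex against the 3p.1 duplex (58) it was 5, 278, 19 and, with no variance trend, 5, and 7 to 26 with a library left out. At 0 calls for the 3p.1 duplex with no filter, limma gave 3 members at an unadjusted p under 0.05. The members' median with a library left out was −0.18 to −0.016 for the 5p duplex against control, 0.05 to 0.15 for the 3p.1 duplex against control and −0.23 to −0.16 between the duplexes. The replicate block changed no member's call. The causes were not tested. With 2 libraries per group, a median interval of 0.34 log2 units to either side limits what can be seen for a single gene.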
